A study of Camellia sinensis with 15 samples.

Results

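Of the 59128 genes measured in tea plant roots, 112 were lower in every library from roots treated with cadmium (Cd) or arsenic (As) than in every untreated library, and by at least 1 on the log2 scale in each treated group. The 112 were 0.189% of all genes in the files and came from 46517 genes with a value above 0 in at least 1 library. Levels were compared as log2(FPKM + 1), where FPKM is the number of fragments of a gene scaled by the length of its gene model and by the size of the library. A gene was kept when its highest value in the 11 treated libraries lay below its lowest value in the 3 untreated libraries, and when the mean of each of the 4 treated groups lay at least 1 below the untreated mean. In all, 116 genes met both conditions, and 4 of them were left out because they belong to 10 MYB and AP2 transcription factor genes that the study singled out. These genes were therefore chosen by their measured levels in treated and untreated roots, and the comparisons with the untreated roots are given only as a description, with no p-value.

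The roots came from 2-year-old seedlings of *Camellia sinensis* 'Fuding Dabaicha', wild type by the labels and grown in pots. Seedlings were poured with 400 mL of a Cd solution at 120 mg/kg and sampled after 10 d (Cd1, 2 libraries used) or 15 d (Cd2, 3 libraries). Others received the same volume of an As solution at 120 mg/kg and were sampled after 10 d (As1, 3 libraries) or 15 d (As2, 3 libraries). Untreated seedlings (CK, 3 libraries) served as the control of all 4 treated groups. The times are those of the study's methods, whereas the labels give day 15 for every library. No source used here says when the CK roots were taken or whether the replicates were separate plants, so p-values measure the spread between these libraries, which may be technical. Since all 4 treated groups were set against the same 3 CK libraries, anything else that set those libraries apart cannot be told apart from the treatments. Another library labelled Cd1 was not used, because its values equalled those of Cd2 replicate 1 in all 59128 genes, which were counted once, under that label.

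Cd and As are not nutrients of plants, and roots take them up partly through carriers of essential elements: Cd ions through transporters of divalent metals, and arsenate through phosphate transporters. In root cells, phytochelatins, which are peptides made from glutathione, bind both, and the complexes are stored in the vacuole. Excess Cd or As is known to slow root growth and to cause oxidative stress. None of the 112 genes could be placed in these pathways here, because no name, position or sequence could be assigned to them. They are therefore ordered below by level and by pattern, under their identifiers in the files. Of the 112, 94 carried CSS identifiers, and the other 18 lay outside the reference annotation and are told apart below by the length of their gene models. Genes outside the annotation made up 16.1% of the 112 and also 16.1% of the genes tested below.

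Genes that did not overlap between treated and CK libraries were uncommon. Of the 46517 genes above 0, 355 (0.763%) were lower in all 11 treated libraries than in all 3 CK libraries, and 131 (0.282%) were higher in all of them. With the second condition added, 116 genes (0.249%) were lower, and 1 gene (0.00215%) was higher. Most genes that separated the treated from the CK libraries by both conditions were thus lower in treated roots.

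The 112 genes covered a wide range of levels in CK roots. The mean FPKM in CK ran from 1.25 to 508, with a median of 6.57. It was at least 100 for 9 genes, at least 10 for 42 and under 5 for 43. In the treated libraries, 59 of the 112 genes reached an FPKM of 1 in at least 3 libraries. The median difference of the group mean from CK over the 112 genes on the log2(FPKM + 1) scale was -1.92 for Cd1 and -1.65 for Cd2, and it was -2.02 for As1 and -1.65 for As2. Over all genes tested, the same medians were 0.01, 0.01, -0.02 and 0.01. The lowest treated mean of a gene was that of As1 alone for 50 genes, of Cd1 alone for 30, of As2 alone for 8 and of Cd2 alone for 7. The other 17 genes shared their lowest mean between groups, 11 of them between Cd1 and As1. How often each group was the lowest over all genes was not counted, so this order is not read as particular to the 112. As these are bulk roots, fewer cells of a type and less RNA per cell cannot be told apart. This scale understates the change of genes with a low FPKM.

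**Figure D1:**
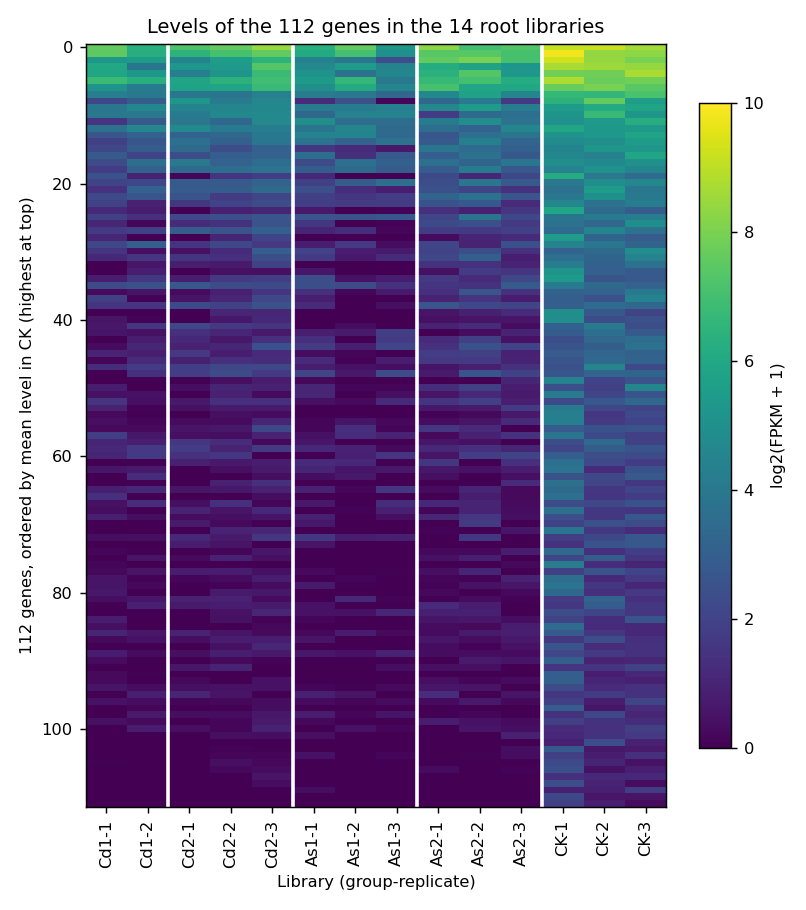
Levels of the 112 genes (rows, ordered by mean level in CK) in the 14 libraries (columns, named by group and replicate), as log2(FPKM + 1) in colour. Rows are darker in all 11 treated columns than in the 3 CK columns at the right, as the choice of the genes requires, and the mean CK level runs from 508 FPKM at the top to 1.25 FPKM at the bottom.

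Summed over the 112 genes, the FPKM was 836 and 548 in Cd1, 692, 833 and 1472 in Cd2, 515, 748 and 326 in As1, and 1297, 1336 and 875 in As2, against 4824, 3593 and 3327 in CK. This was 0.0414% to 0.199% of the summed FPKM of a treated library and 0.440% to 0.586% of that of a CK library. The highest treated sum was that of Cd2 replicate 3 and the lowest that of As1 replicate 3. That every treated sum lies under every CK sum follows from the choice of the genes, so only the sizes are described. Without the 4 genes that were highest in CK, the sum lay between 230.2 and 731 in treated libraries and between 1978 and 2352 in CK libraries.

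Many of the 112 genes were listed at 0 in treated roots. Of the 1232 values of these genes in treated libraries, 314 (25.5%) were 0, whereas none of their CK values can be 0 by the first condition. By library, 30 and 31 genes were at 0 in Cd1, 36, 12 and 11 in Cd2, 34, 50 and 46 in As1, and 23, 21 and 20 in As2. Each As1 library thus had more of these genes at 0 than each As2 library. The order was the same over all genes tested, of which 3.21%, 5.91% and 3.87% were at 0 in As1 and 1.95%, 2.36% and 2.88% in As2. In all, 68 genes were at 0 in at least 1 treated library, 25 in at least 6 and 3 in all 11, while 44 were above 0 throughout. Depth limits these zeros, since the libraries held between 10483260 and 13846857 fragments and the median value of one of these genes corresponded to 72.5 fragments in a CK library and 7 fragments in a treated library. A count of 0 allows up to 3 fragments.

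**Figure D2:**
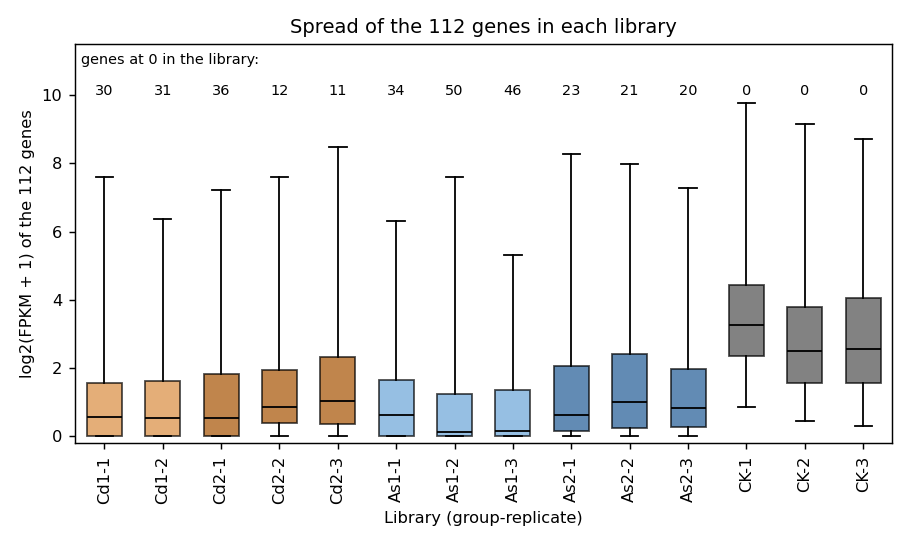
Spread of log2(FPKM + 1) over the 112 genes in each library, with the box at the quartiles, the line at the median and the whiskers at the lowest and highest gene; the numbers on top count the genes at 0. The medians of the treated libraries lie between 0.0952 FPKM (As1 replicate 2) and 1.06 FPKM (Cd2 replicate 3), and those of CK between 4.72 and 8.64 FPKM.

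The 4 most abundant of the genes averaged between 379.5 and 508 FPKM in CK. An unannotated gene of 693 bases had the highest CK mean, with 183 and 73.6 FPKM in Cd1, 87.5, 134 and 190.3 FPKM in Cd2, 68.9, 127 and 31.4 FPKM in As1, and 166, 170.1 and 135 FPKM in As2, against 871, 336 and 316 FPKM in CK. Its CK values were uneven, with replicate 1 far above the other replicates, and the closest treated value was that of Cd2 replicate 3. CSS0010862 had 191 and 81.3 FPKM in Cd1, 148, 194 and 353 FPKM in Cd2, 78.6, 195 and 38.6 FPKM in As1, and 309, 128 and 153 FPKM in As2, against 552, 567 and 392 FPKM in CK. Here Cd2 replicate 3 came close to the lowest CK library, and the smallest of the 4 differences from CK was -1.20, in Cd2. An unannotated gene of 848 bases had 62.9 and 13.8 FPKM in Cd1, 37.0, 40.0 and 157 FPKM in Cd2, 25.2, 43.4 and 21.1 FPKM in As1, and 71.2, 53.7 and 37.2 FPKM in As2, against 428, 371 and 340.1 FPKM in CK. Of these abundant genes it was the most clearly separated, with a mean of 379.5 ± 44.4 FPKM in CK (SD, n = 3) and differences from CK of -3.62 for Cd1, -2.60 for Cd2, -3.68 for As1 and -2.83 for As2. The other one, CSS0041307, is described below with the comparison of the times.

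A further 5 genes had CK means between 109 and 293 FPKM. CSS0001763 averaged 48.3 ± 14.7 FPKM in Cd1 (SD, n = 2), 55.3 ± 50.6 FPKM in Cd2, 23.0 ± 10.8 FPKM in As1 and 93.6 ± 59.9 FPKM in As2, against 293 ± 110.2 FPKM in CK (SD, n = 3 each). CSS0033136 had 15.7 to 18.6 FPKM in Cd1, 13.4 to 19.2 FPKM in Cd2, 8.94 to 17.2 FPKM in As1 and 22.5 to 53.5 FPKM in As2, against 96.2 to 141 FPKM in CK. In both genes the As2 libraries included the highest treated value, As2 replicate 2. CSS0029584 varied most among the treated groups together with CSS0041307, at 3.50 and 6.70 FPKM in Cd1, 36.8, 15.7 and 24.0 FPKM in Cd2, 1.27, 4.61 and 0.0905 FPKM in As1, and 9.08, 16.8 and 2.20 FPKM in As2, against 84.2, 194 and 47.7 FPKM in CK. Its difference from CK was -1.89 in Cd2 and -5.28 in As1, the largest decrease of any of the 112 genes, and the spread within As1 was wide. The other 2 genes, CSS0031677 and an unannotated gene of 697 bases, lay between 15.2 and 137 FPKM in treated libraries and between 175 and 435 FPKM in CK libraries.

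The size of the decrease was measured by the smallest of the 4 differences from CK. This least decrease ran from 1.00 to 2.86 over the 112 genes, with a median of 1.43, and was at least 2 in 14 genes and under 1.2 in 34. The 6 genes with the largest values were CSS0001078, CSS0020354, CSS0025316, CSS0029838, CSS0048579 and the unannotated gene of 848 bases described above. CSS0020354 had 1.22 and 0.749 FPKM in Cd1, 0, 0.843 and 1.04 FPKM in Cd2, 0.618, 0 and 0.0572 FPKM in As1, and 1.52, 0.846 and 2.03 FPKM in As2, against 59.8, 9.93 and 6.48 FPKM in CK. The gap between its lowest CK and highest treated library, 1.30, was the widest of the 112. CSS0001078 had 1.09 and 0 FPKM in Cd1, 0, 1.06 and 3.04 FPKM in Cd2, 0 FPKM in the 3 As1 libraries, and 0.216, 1.07 and 1.33 FPKM in As2, against 45.1, 8.31 and 6.42 FPKM in CK. CSS0029838 had 0.430 and 0.0639 FPKM in Cd1, 0, 0.575 and 1.22 FPKM in Cd2, 0 FPKM in all of As1, and 0.366, 0.433 and 0.526 FPKM in As2, against 28.7, 3.83 and 4.61 FPKM in CK. In these genes, as in CSS0025316 and CSS0048579, CK replicate 1 stood far above the other CK libraries. CSS0025316 had at most 4.72 FPKM in treated libraries, against 70.8, 14.6 and 10.4 FPKM in CK. CSS0048579 had at most 1.05 FPKM in treated libraries, against 20.7, 3.09 and 4.88 FPKM in CK.

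At the low end, 3 genes were listed at 0 in all 11 treated libraries, which makes their differences from CK equal in the 4 groups. CSS0022135 had 3.45, 0.515 and 0.447 FPKM in CK, from 8, 1 and 1 fragments. CSS0025459 had 0.839, 4.34 and 0.870 FPKM in CK, from 3, 13 and 3 fragments. An unannotated gene of 349 bases had 2.71, 0.810 and 0.234 FPKM in CK, from 12, 3 and 1 fragments. As these genes were above 0 only in CK, the counts and lengths are the smallest that fit, and multiples of them would fit as well. With these counts, the separation of single libraries rests on values at or near the limit of detection. Of the 112 genes, 18 had under 10 fragments in a CK library and 4 had at most 3.

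Several genes sat close to the limits. For CSS0014630 the lowest CK library had 2.674 FPKM and the highest treated library (As2 replicate 2) 2.671 FPKM, and for CSS0039491 the closest pair was 2.006 FPKM in As1 replicate 3 and 2.016 FPKM in CK replicate 2. CSS0017485 and CSS0042142 were just outside, as a treated and a CK library were both at 0. The least decrease was 1.0044 for CSS0009911 and 1.0070 for CSS0041307, just inside, and 0.9930 for CSS0008545 and 0.9893 for CSS0003036, just outside. A further 239 genes did not overlap but had a least decrease under 1, and 220 had one of at least 1 but overlapped. Leaving out 1 library and choosing again gave 263 genes without As2 replicate 2, 264 without CK replicate 1, 194 without CK replicate 2 and 197 without CK replicate 3. Of the 112, 82 were chosen again without CK replicate 1, 96 without CK replicate 2 and 104 without CK replicate 3.

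The 3 CK libraries did not contribute equally. The highest CK value was that of replicate 1 for 55 genes, of replicate 2 for 29 and of replicate 3 for 28, whereas among all genes tested these shares were 34.1%, 28.3% and 37.6%. For 39 genes, replicate 1 exceeded the next CK library by at least 1 on the log2(FPKM + 1) scale. Replicate 2 did so for 9 genes and replicate 3 for 5. Over all genes tested, the shares were 2.14% for replicate 1, 1.27% for replicate 2 and 2.76% for replicate 3. The median FPKM of the 39 genes was 12 in CK replicate 1, 2.02 in replicate 2 and 2.18 in replicate 3, and in treated libraries it lay between 0 and 0.605. So the 39 genes were lower in treated roots than in each CK library, but a large part of their mean in CK came from 1 library. The part that this library has in the choice was measured only by leaving it out, as given above.

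**Figure D3:**
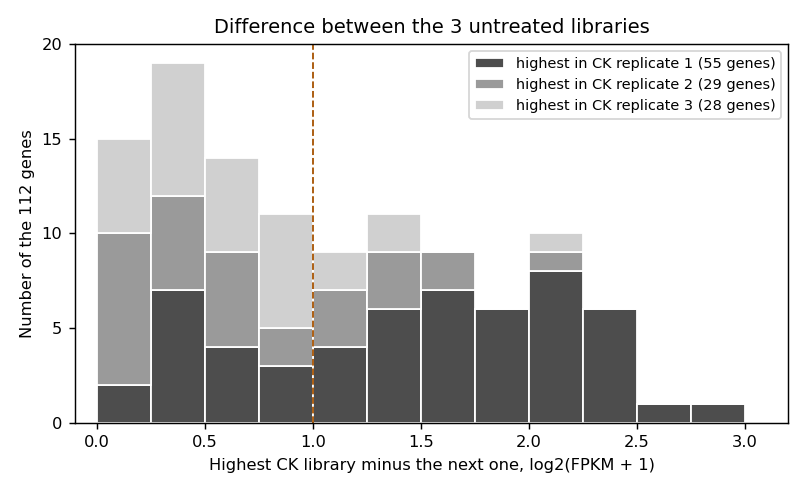
Number of the 112 genes by the difference between the highest CK library and the next one, in log2(FPKM + 1), with shades for the CK library that was highest and a dashed line at 1. To the right of the line lie 39 genes that were highest in CK replicate 1, against 9 in replicate 2 and 5 in replicate 3.

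The gene models of the 112 genes, read from the steps of the FPKM values as the shortest length that fits, had a median length of 1034 bases. They ran from 183 to 4656 bases. The median was 1207 bases over all genes tested and 1344 bases over tested genes with a CK level between the quartiles of the 112. For each pair of the 109 genes that were above 0 in a treated library, the deviations from the group means over the 11 treated libraries were correlated. All pairs share the libraries and their depth. The median Pearson r was 0.107 (quartiles -0.197 and 0.392). For the 44 genes above 0 in all 11 libraries it was 0.142 (quartiles -0.167 and 0.441). No value for all genes was computed, so whether these correlations are low was not tested.

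The treated groups were then compared with each other, for which the genes were not chosen. Of the 112 genes, 98 passed the filter on low values, which asked for 3 or more libraries with an FPKM of 1 or above. They were tested with limma on log2(FPKM + 1) among 33109 genes, and a gene was called differentially expressed with a Benjamini-Hochberg adjusted p under 0.05 and an absolute log2 fold change over 1. All treated values of the 112 genes lie under those of CK, which limits how far they can differ. Counts against CK follow largely from the choice, and nothing is read from them: the number of these genes called lower than CK was 61 for Cd1 (2.73% of all genes tested were called lower), 3 for Cd2 (0.0302%), 64 for As1 (1.28%) and 1 for As2 (0.00906%).

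Between 15 d and 10 d of As, 5 of the 98 genes were called, all of them higher in As2 than in As1 (2.1% of all genes tested were called, and 1.56% were called higher). They were CSS0041307, CSS0042165, CSS0015793, an unannotated gene of 4656 bases and CSS0006416. In each of them the 3 As2 libraries lay above the 3 As1 libraries. All treated libraries lie below the 3 CK libraries by the choice of the genes. The first 4 follow the rule for named genes, and CSS0006416 was added after its values were seen. Without As2 replicate 1 the count was 2, and it was 3 without As2 replicate 2, without Cd2 replicate 3, and without As1 replicate 1, 2 or 3 in turn. The 98 include genes that passed the filter only through CK. Fitted on genes with an FPKM of 1 in 3 or more treated libraries, 5 of 59 were called, beside 708 of all 32027 such genes.

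CSS0041307 had the largest difference between As2 and As1 among the 112 genes. It had 194, 253 and 136 FPKM in As2, against 20.2, 14.3 and 4.17 FPKM in As1. Cd roots lay between these, with 22.1, 45.9 and 87.4 FPKM in Cd2 and 38.0 and 43.8 FPKM in Cd1, and CK roots had 623, 341 and 256 FPKM. The As2 and As1 libraries were far apart, and As2 replicate 2 nearly reached the lowest CK library. The log2 fold change of As2 over As1 was 3.99 (SE 0.54, limma adjusted p = 0.00242), and the gene was called under all 24 settings tried. The difference from CK was -5.00 in As1 and -1.01 in As2.

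CSS0042165 had 14.2, 10.4 and 7.39 FPKM in As2, against 2.01, 1.34 and 0.605 FPKM in As1, with 10.1, 4.11 and 7.46 FPKM in Cd2, 3.42 and 6.52 FPKM in Cd1, and 21.8, 38.7 and 36.7 FPKM in CK. The As2 and As1 libraries did not overlap, and the Cd libraries overlapped with As2. The log2 fold change of As2 over As1 was 2.33 (SE 0.36, limma adjusted p = 0.00561), and it was called under all 24 settings. CSS0015793 had 5.17, 3.40 and 3.15 FPKM in As2, against 1.26, 0 and 0.332 FPKM in As1, with 3.73, 2.82 and 4.55 FPKM in Cd2, 1.93 and 1.84 FPKM in Cd1, and 7.19, 10.4 and 9.05 FPKM in CK. Its log2 fold change of As2 over As1 was 1.74 (SE 0.30, limma adjusted p = 0.0112), from at most 7 fragments in an As1 library. The gene was called under 22 of 24 settings. It missed the threshold without As2 replicate 1 (limma adjusted p = 0.0628) and with only the groups compared (0.0926).

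For the other genes the call depended more on single libraries. The unannotated gene of 4656 bases had 2.54, 2.75 and 0.876 FPKM in As2, against 0.266, 0.127 and 0.0164 FPKM in As1, with 2.17, 0.689 and 1.27 FPKM in Cd2, 1.00 and 0.795 FPKM in Cd1, and 6.36, 8.76 and 7.57 FPKM in CK. The log2 fold change of As2 over As1 was 1.37 (SE 0.31, limma adjusted p = 0.0369), and it was called under 14 of 24 settings. It missed the threshold without Cd2 replicate 3 (adjusted p = 0.0507), without As1 replicate 1 (0.0685), 2 (0.0892) or 3 (0.111), and without As2 replicate 1 (0.152) or 2 (0.0914). CSS0006416 had 7.97, 12.6 and 5.17 FPKM in As2, against 2.75, 1.88 and 2.55 FPKM in As1, with 5.07, 2.47 and 3.26 FPKM in Cd2, 3.64 and 5.19 FPKM in Cd1, and 14.3, 31.3 and 15.7 FPKM in CK. The log2 fold change of As2 over As1 was 1.43 (SE 0.35, limma adjusted p = 0.0469), and it was called under 7 of 24 settings. It missed the threshold without Cd1 replicate 1 (adjusted p = 0.0542) or 2 (0.0542), without Cd2 replicate 1 (0.0539), 2 (0.0577) or 3 (0.0631), without As1 replicate 1 (0.085), 2 (0.127) or 3 (0.11), without As2 replicate 1 (0.146) or 2 (0.117), and without CK replicate 3 (0.0506).

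**Figure D4:**
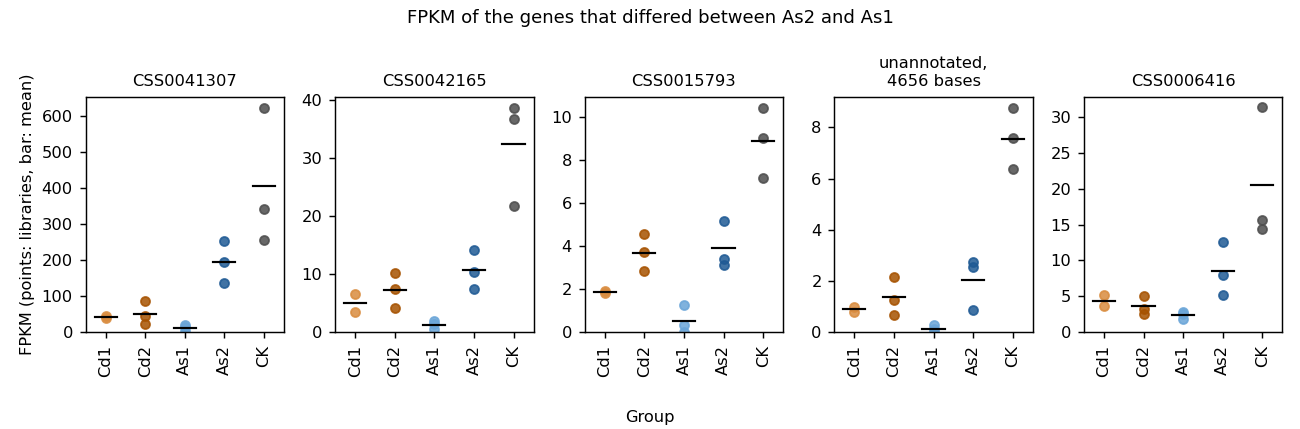
FPKM of the 5 genes called in As2 against As1 (1 panel each, with its own linear axis) in the libraries of the 5 groups, with points for libraries and bars for group means. In every panel the 3 As2 points lie above the 3 As1 points. All treated points lie below the 3 CK points, as the choice of the genes requires. CSS0041307 shows the widest separation of As2 from As1, with 136 to 253 FPKM in As2 and 4.17 to 20.2 FPKM in As1.

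Most of the other genes leaned the same way without passing the test. Of the 112 genes, 86 had a higher mean in As2 than in As1, 18 a lower one and 8 an equal one, with a median difference of 0.35 on the log2(FPKM + 1) scale. Of all 46517 genes above 0, 52.5% had a higher mean in As2. Since 39 of the 98 genes passed the filter only through CK, where the choice makes them high, the shares were also taken over genes that reached an FPKM of 1 in 3 or more treated libraries. There, 50 of 59 genes (84.7%) were higher in As2, beside 53.1% of all such genes. All 3 As2 libraries lay above all 3 As1 libraries for 15 of the 59 (25.4%), beside 11.4%, and below them for 0, beside 10.3%. The difference was at least 1 in the higher direction for 19 of the 112 genes and in the lower direction for 1, beside 1834 and 842 of all 46517 genes above 0. Over the genes kept on treated libraries it was 17 and 1 of the 59, beside 1781 and 794 of all 32027 such genes. At an unadjusted limma p under 0.05, 15 of the 98 genes tested differed (15.3%), beside 18.1% of all genes tested. The 98 include the genes that passed the filter only through CK. Fitted on the genes kept on treated libraries, 15 of 59 differed, beside 5909 of all 32027 such genes, so the share of the 59 was the higher one.

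Between 15 d and 10 d of Cd, 0 of the 98 genes were called with limma (1.53% of all genes tested were called), and 0 with limma-voom on fragments recovered from the FPKM values. At an unadjusted p under 0.05, 7 differed (7.14%), beside 14.6% of all genes tested. Fitted on the genes kept on treated libraries, 6 of 59 did, beside 4763 of all 32027 such genes. In that fit 0 of 59 were called, beside 511 of all 32027. The means leaned toward higher levels at 15 d here as well, with 82 of the 112 genes higher in Cd2 than in Cd1, 26 lower and 4 equal, and a median difference of 0.21. Of all 46517 genes above 0, 49.9% had a higher mean in Cd2. Over the genes kept on treated libraries alone, 48 of 59 (81.4%) were higher in Cd2, beside 51.5% of all such genes. All Cd2 libraries lay above both Cd1 libraries for 20 of the 59 (33.9%), beside 18% of all such genes, and below them for 0, beside 16.1%. The shares at both metals are a description and were not tested. Cd2 replicate 1 had 36 of the genes at 0, against 12 and 11 in the other Cd2 libraries, so the zeros were spread unevenly over the Cd2 libraries.

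**Figure D5:**
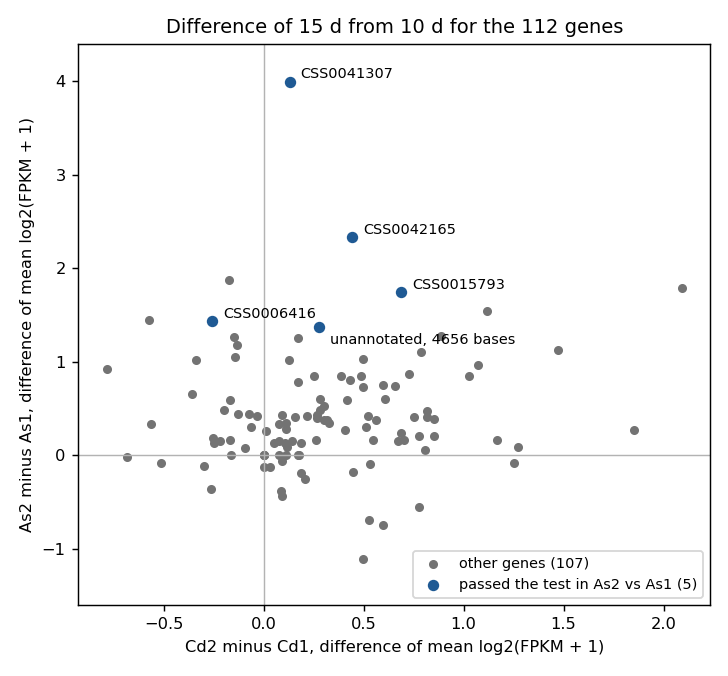
Difference of mean log2(FPKM + 1) between 15 d and 10 d for the 112 genes, with Cd2 minus Cd1 on the horizontal axis and As2 minus As1 on the vertical axis; filled blue points passed the test in As2 against As1. More points lie to the right of 0 (82 of 112) and above 0 (86 of 112) than on the other sides, and CSS0041307 stands apart at 3.99 on the vertical and 0.13 on the horizontal axis.

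No gene passed the test between Cd and As roots. At 10 d, 0 of the 98 genes were called between Cd1 and As1 with limma (1.63% of all genes tested were called) and 0 with limma-voom, while 10 differed at an unadjusted p under 0.05 (10.2%, beside 18.5% of all genes tested). The mean was higher in Cd1 than in As1 for 63 of the 112 genes (56.2%) and lower for 38 (33.9%). Of all 46517 genes above 0, 48.9% were higher and 44.6% lower. Over the genes kept on treated libraries, 34 of 59 (57.6%) were higher in Cd1, beside 50.8% of all such genes. This was not tested. Without As2 replicate 2 in the fit, 1 gene was called in this comparison. At 15 d, 0 were called between Cd2 and As2 with limma (0.00302%) and 0 with limma-voom, while 8 differed at an unadjusted p under 0.05 (8.16%, beside 12.4% of all genes tested). The means of the 98 genes did not lean steadily one way at 15 d: 42 were higher in Cd2 than in As2 and 56 lower, but 52 were higher and 46 lower without Cd2 replicate 1, and 50 higher and 48 lower without As2 replicate 2. Of all genes tested, 48.8% were higher in Cd2 than in As2 and 51.2% lower. The difference between the metals in the change from 10 d to 15 d was tested as an interaction, in which 0 of the 98 genes were called with limma (0.275% of all genes tested) and 0 with limma-voom, and 11 had an unadjusted p under 0.05 (11.2%, beside 12.3% of all genes tested). That As2 differed from As1 in 5 genes and Cd2 from Cd1 in none is therefore not shown to be a difference between the metals. CSS0041307 came closest, with an interaction of -3.86 (SE 0.81, limma adjusted p = 0.0801). The counts called and the shares at an unadjusted p cover genes that passed the filter only through CK. Fitted on the genes kept on treated libraries, 0 of 59 were called between Cd1 and As1, beside 544 of all 32027. It was 0 of 59 between Cd2 and As2 (beside 1) and in the interaction (beside 91) as well. At an unadjusted p under 0.05 in that fit, 10 of 59 differed between Cd1 and As1, beside 6064 of all 32027. Between Cd2 and As2, 8 of 59 did, beside 4038 of 32027, and in the interaction 11 of 59, beside 4031 of 32027. Between Cd2 and As2 the share of the 59 was thus close to that of all such genes, and in the interaction it was above. These shares are a description and were not tested.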

How the data were processed

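Root RNA libraries of 5 groups were used, as FPKM values that the authors deposited for each library. Per the study's methods, reads were trimmed and mapped with HISAT to a tea genome before FPKM was calculated; the genome version is not given in the sources used here. All libraries hold 59128 genes. No further scaling was applied. For each gene, whole numbers of fragments and a gene model length were recovered from the steps of its FPKM values, within 0.01 fragments, for all 46517 genes above 0. The shortest length that fits was taken, so lengths and fragments of genes above 0 in few libraries may be too small. Of the CSS identifiers, 0 were in the annotation that was deposited with them, and of 5273 shared identifiers of unannotated genes only 3 had the same length there, so no positions are given.

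The 112 genes and the lists were chosen with earlier results of these data known. The filter kept genes that reached an FPKM of 1 in 3 or more libraries. The log2(FPKM + 1) values were fitted by limma (version 3.58.1, under R 4.3.3) with a mean per group over all 14 libraries and moderated variances that follow a trend, and Benjamini-Hochberg adjustment over all genes tested. Summaries used Python 3.11.15, numpy 2.4.6 and pandas 2.3.3. The recovery, the selection and the test were tested on simulated data. Results were recomputed under 23 further settings, which varied the pseudocount, filter, scaling, libraries and model. Among them, limma-voom on recovered fragments was chosen after seeing the data. Leaving out Cd2 replicate 1 and leaving out the identical library under both labels are the same fit, which is counted under both names. Genes named singly were the 6 with the largest least decrease, the 4 highest in CK, up to 4 per comparison with the smallest p among those called, the 2 most and the 2 least even across treated groups (3 tied), and those next to the limits. A gene the study names in its text, or one with a name or position, would also have been named, and there was none. CSS0006416 and the other genes above 100 FPKM in CK were added after their values were seen. The root identity was not checked against markers, since no names were at hand.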

Additional observations from a re-analysis of the deposited data

Results flagged for a closer look

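For 2 of the 112 genes, every library moved one way between the metals at 10 d and the other way at 15 d. The share of all genes with such an opposite order was not counted, so nothing is read from this count. Of all 46517 genes above 0, Cd1 lay wholly above As1 for 14.4% (18.8% of the 112). Cd2 lay wholly below As2 for 8.15% (4.46% of the 112). CSS0041307 had 38.0 and 43.8 FPKM in Cd1, above all As1 libraries (20.2, 14.3 and 4.17 FPKM), but 22.1, 45.9 and 87.4 FPKM in Cd2, below all As2 libraries (194, 253 and 136 FPKM). The log2 fold change of Cd over As was 1.82 at 10 d (SE 0.61, limma adjusted p = 0.135) and -2.05 at 15 d (SE 0.54, adjusted p = 0.182), and the interaction of -3.86 did not pass the threshold (adjusted p = 0.0801). CSS0006416 had 3.64 and 5.19 FPKM in Cd1, above all As1 libraries (2.75, 1.88 and 2.55 FPKM), and 5.07, 2.47 and 3.26 FPKM in Cd2, below all As2 libraries (7.97, 12.6 and 5.17 FPKM). Its log2 fold change of Cd over As was 0.67 at 10 d (SE 0.39, limma adjusted p = 0.379) and -1.02 at 15 d (SE 0.35, adjusted p = 0.254), and the interaction of -1.69 missed the threshold as well (adjusted p = 0.192).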

How the results depend on the processing

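The number of genes depended on the scale and the libraries. It was 200 with a pseudocount of 0.1 (all 112 among them), 351 with no least difference and 14 with a least difference of 2, and 107 to 264 without one library. Genes called in As2 against As1 were 5, against 7 with a pseudocount of 0.1, 3 without a filter, 3 after quantile normalization, 2 with only the groups compared and 2 to 5 without one library. In Cd1 against As1, 1 gene was called with the identical library kept under both labels, and 0 to 1 without one library. Cd2 against Cd1, Cd2 against As2 and the interaction gave 0 under all 24 settings. The counts called against CK, which the choice of genes used, moved more. For Cd1 the count of 61 became 38 with a pseudocount of 0.1, 38 with the filter on treated libraries, 24 with only the groups compared, 18 with limma-voom and 9 to 65 without one library. For As1 the count of 64 became 37 with the filter on treated libraries, 24 with only the groups compared, 34 with limma-voom and 14 to 68 without one library. For Cd2 the count of 3 became 1 with a pseudocount of 0.1, the filter on treated libraries, only the groups compared or limma-voom, 0 with the identical library left out under both labels, and 0 to 14 without one library. For As2 the count of 1 became 0 with a pseudocount of 0.1, quantile normalization, only the groups compared, the identical library left out or kept under both labels, or limma-voom, and 0 to 16 without one library. The median over the 98 genes in Cd2 against As2, -0.07, changed sign to 0.03 without Cd2 replicate 1, and to 0.01 without As2 replicate 2. For the 5 genes called in As2 against As1, 86 of the values under other settings kept the call and 29 fell short of it in the same direction. Of the medians over those of the 112 genes that were tested in each setting, 187 moved by less than 0.206 and 20 by more. That limit is the within-group SD of the mean log2(FPKM + 1) of the 112 genes, not the spread of a median. The cause of these changes was not tested, beyond the fewer genes or libraries that a setting leaves. Replicate numbers did not pair the libraries: of 26 pairs with the same number, 4 had deviations correlated above 0.1 (median r 0.009, against 0.0165 for different numbers). With the replicate block, 4 genes were called in As2 against As1, 1 in Cd2 against CK and 0 in As2 against CK. The median of 7 fragments per gene in a treated library limits what could be detected among the lower genes.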
